A study of Mus musculus with 19 samples.

Results

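Npas4 (neuronal PAS domain protein 4) was followed across 19 arrays of RNA from cultured mouse hippocampal neurons in which NMDA receptors had been blocked or not. Every probe whose gene name is Npas4 was taken, which gave 1 probe of the 41174 on the array and 1 gene of the 19194 that could be tested. The gene was chosen by its own log2 ratios and detection flags over the 4 treatments, so its levels and differences are given below as a description, with no test. The measurements of it that were used are the log2 ratio of red over green, which is neuron RNA over a common reference RNA, and the scanner software's flag for a red signal well above background.

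Npas4 is a transcription factor with a basic helix-loop-helix and a PAS domain that works as a dimer with Arnt or Arnt2. It is an immediate early gene of neurons: calcium that enters through NMDA receptors or L-type voltage-gated channels raises its transcription without new protein synthesis, and growth factors or cAMP alone raise it little. In excitatory neurons it is known for promoting inhibitory synapses on the cell body, in part through Bdnf, and it is counted among the genes that protect neurons in an activity-dependent way. The protein and the transcript are both short-lived.

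All neurons were dissociated mouse hippocampal cultures at day 21, held for 6 h with the agent. The vehicle group had 5 arrays. A further 5 arrays came from cultures with 100 µM AP5, which competes with glutamate for its site on NMDA receptors. There were 4 arrays for 100 nM NVP-AAM077 (NVP), an antagonist that prefers receptors with the GluN2A subunit, and 5 for 1 µM Ro25-4891 (Ro25), whose name is spelled here as in the labels and whose target is not stated there. The doses differed between the compounds, and the cultures were not said to be stimulated. Nothing in the labels says that the replicates are separate cultures, so p-values of other genes rest on a spread between arrays that may be technical only. The cultures were mixed. With vehicle the 10 neuron markers had a mean log2 ratio of 4.17 ± 0.144 (SD, n = 5). The 10 astrocyte markers stood at 3.73 ± 0.482 and the 10 oligodendrocyte lineage markers at 2.05 ± 0.28. Of 10 microglial markers 8 were measured (mean -1.78), and of 9 endothelial and fibroblast markers 7 (mean -3.29). The microglial markers Itgam and P2ry12 and the endothelial marker Cdh5 were not well above background on any array. In such bulk RNA, fewer cells with Npas4 and less Npas4 RNA per cell cannot be told apart.

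The probe A_51_P433810 reads the transcript NM_153553 and lies at chr19:4984833-4984892 in the mm8 assembly. It was spotted once per array and its spot carried no quality mark on any array. The gene is on the minus strand. The 250 bases before its annotated start (RefSeq, GRCm38.p6, chr19:4989972-4990221, minus strand) are shown because this stretch was searched for the letters bound by CREB, the calcium-regulated factor that acts on many immediate early genes. The same stretch of Nr4a1 (GRCm38.p6, chr15:101266596-101266845, plus strand), a nuclear receptor gene whose array pattern was among the 10 most like that of Npas4, is set beside it. Capitals mark TGACGTC, on either strand, in Npas4 and TGACG, on either strand, in Nr4a1.
Npas4: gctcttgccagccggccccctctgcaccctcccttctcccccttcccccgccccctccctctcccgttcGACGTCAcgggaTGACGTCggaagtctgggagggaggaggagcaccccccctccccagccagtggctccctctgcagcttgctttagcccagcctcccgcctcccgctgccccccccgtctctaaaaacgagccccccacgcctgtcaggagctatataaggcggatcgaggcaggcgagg
Nr4a1: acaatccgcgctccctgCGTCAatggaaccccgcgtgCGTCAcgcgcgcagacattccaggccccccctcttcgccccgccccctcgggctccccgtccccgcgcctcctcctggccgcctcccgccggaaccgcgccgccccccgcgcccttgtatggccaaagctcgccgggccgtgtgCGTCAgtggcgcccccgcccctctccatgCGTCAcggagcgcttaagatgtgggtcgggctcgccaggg

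The Npas4 window held 2 matches to TGACGTC, the first 7 letters of the cAMP response element, 1 on each strand. They ran from 181 to 175 and from 169 to 163 bases before the start, separated by 5 bases. Of the 32851 windows of this length in the RefSeq table, 2.78% held at least 1 match to TGACGTC and 1.56% held 2 or more, a share that counts each full TGACGTCA as 2 because it reads the same on both strands. The full TGACGTCA, which 1.55% of windows held, was not among the letters of the Npas4 window. Neither were the E-box CACGTG (6.02% of windows), the MEF2 motif of CTA, any 4 bases and TAG (3.2%), the CArG box of serum response factor (1.47%) or TATAAA (12.4%), each searched on both strands. Only exact matches were counted, so near variants, such as the letters TATATAAG that the Npas4 window does hold, were left out. Nr4a1 held 4 matches to the shorter element TGACG, which 17.8% of windows held, and none to TGACGTC. A match to TGACG was present in 4 of the 9 genes with a window among the 10 whose arrays were most like those of Npas4, in 11 of 13 rapid activity-regulated transcription factors, 6 of 8 genes reported to depend on Npas4, 4 of 8 nuclear calcium survival genes, 4 of 14 upstream regulators, 1 of 13 bHLH-PAS genes and 1 of 10 inhibitory synapse genes. These counts are per gene over all its windows, whereas 17.8% is a share of windows. These matches describe letters in a window and say nothing of what binds there.

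Npas4 was highest with vehicle, lower with NVP, lower again with Ro25 and lowest with AP5. In the vehicle arrays 1 to 5 its log2 ratio was 0.89, 1.18, 1.69, 1.10 and 1.39. In the 4 NVP arrays it was 0.82, 1.18, 0.71 and 0.98. Arrays 2 and 4 of NVP thus lay within the vehicle range, and arrays 1 and 3 lay below it. In the 5 Ro25 arrays the log2 ratio was 0.54, 0.77, 0.59, 0.67 and 0.19, so that every Ro25 array was under the lowest vehicle array and 1 of them, array 5, stood well under the other 4. In the 5 AP5 arrays it was -0.18, 0.031, 0.0055, -0.085 and -0.16. These sat close together, near a ratio of 1, and under the lowest Ro25 array.

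**Figure D1:**
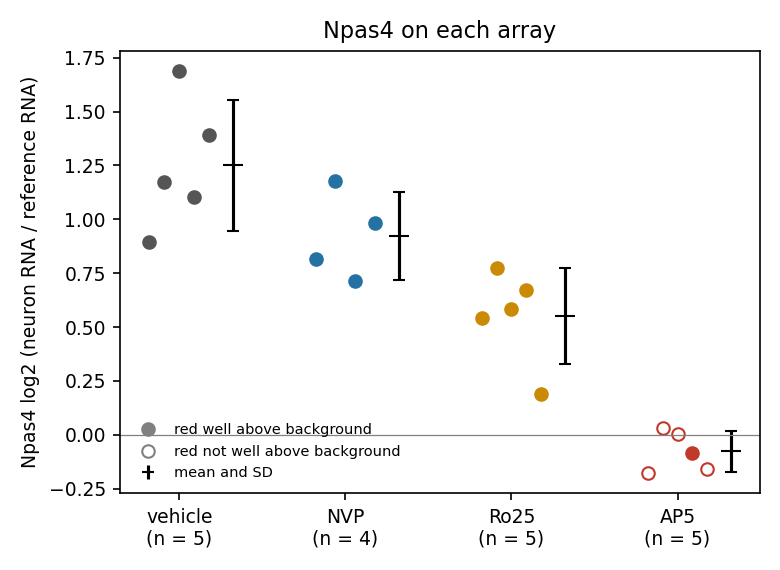
Npas4 log2 ratio of neuron RNA over reference RNA (y axis) on each of 19 arrays, by treatment (x axis). Filled points are arrays on which the red Npas4 signal was well above background, open points are those on which it was not, and the black bars give the mean and SD. The vehicle arrays run from 0.89 to 1.69 and the AP5 arrays from -0.18 to 0.031, with 4 of 5 AP5 points open.

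The group means were 1.25 ± 0.303 for vehicle (SD, n = 5), 0.92 ± 0.204 for NVP (n = 4), 0.55 ± 0.222 for Ro25 (n = 5) and -0.077 ± 0.0943 for AP5 (n = 5). Neighbours in this order overlapped in 2 of 3 steps: the highest NVP array was above 3 of the 5 vehicle arrays, and the highest Ro25 array (0.77) was above the lowest NVP array (0.71). Between Ro25 and AP5 there was no overlap, and neither Ro25 nor AP5 overlapped with vehicle.

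The difference from vehicle was -0.33 on the log2 scale with NVP (SE 0.136), -0.70 with Ro25 (SE 0.129) and -1.33 with AP5 (SE 0.129). Vehicle was therefore 1.25-fold above NVP, 1.62-fold above Ro25 and 2.51-fold above AP5 in the ratio as processed here. All 3 differences use the same 5 vehicle arrays, so they are not independent of one another. Every array below every vehicle array was found for 0.422% of genes with Ro25, 4.5% with AP5 and 1.09% with NVP, and Npas4 was among them with Ro25 and AP5. Since these values chose the gene, nothing is read from those shares.

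The red signal carried these differences, and the reference channel held a nearly constant, low amount of Npas4. After subtraction of the local background, the red spot mean was 199.7 ± 72.2 scanner units with vehicle (SD, n = 5), 138 ± 39.5 with NVP (n = 4), 82.9 ± 29.7 with Ro25 (n = 5) and 26.7 ± 6.71 with AP5 (n = 5). With vehicle the red spot was 3.31 to 6.18 times its local background, and with AP5 it was 1.31 to 1.63 times. In green, the same spot gave group means from 22.4 to 25.1 units above background, and 18 of the 19 arrays had it well above background there, the exception being NVP array 3.

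Red was well above background on all 5 vehicle, all 4 NVP and all 5 Ro25 arrays, and on 1 of the 5 AP5 arrays (array 4). The level with AP5 is thus near the limit of what these arrays measured, and how far it fell depends on how the background is handled. Between arrays of the AP5 group, array 4, the one above background, had a red signal of 26.7 units over background, in the middle of the 16.7 to 33.5 of that group.

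**Figure D2:**
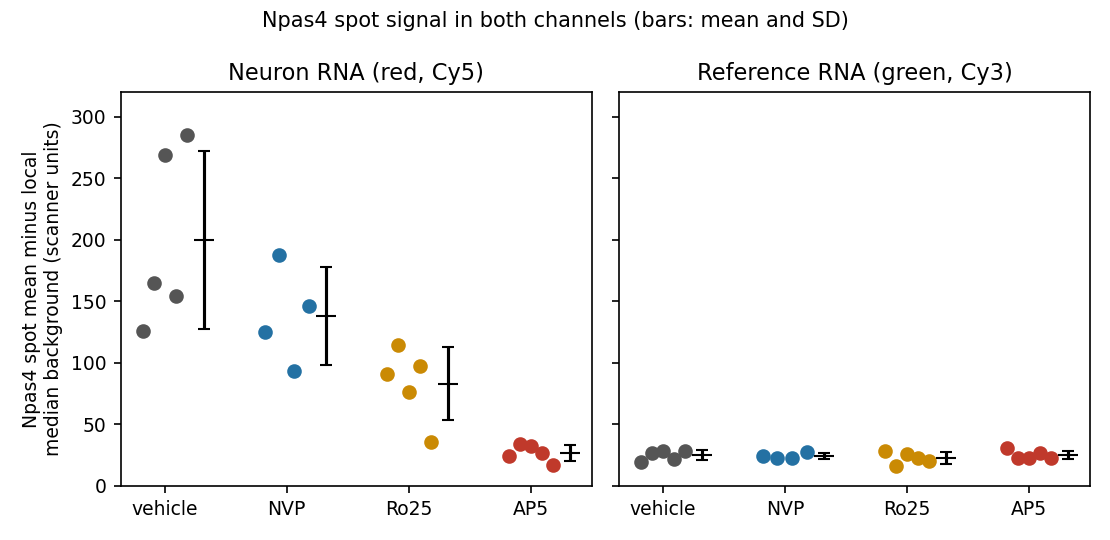
Npas4 spot mean minus local median background in scanner units (y axis, from 0) in the red channel (left, neuron RNA) and the green channel (right, reference RNA) for each array, by treatment (x axis); bars give mean and SD. Red falls from a mean of 199.7 with vehicle to 26.7 with AP5, while green stays between 15.9 and 30.5 on every array.

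Arrays lay 4 to a slide, apart from 1 slide with 3, and the slides were tied to treatment. No slide held both AP5 and vehicle arrays, and none held NVP and vehicle arrays. On the 1 slide shared by Ro25 and vehicle, the 3 Ro25 arrays had a mean log2 ratio of 0.52 (0.19 to 0.77) and the vehicle array 1.18. On the slide shared by NVP and Ro25, the 2 NVP arrays had a mean of 1.08 and the 2 Ro25 arrays 0.61. On the slide shared by AP5 and NVP, the AP5 array stood at -0.16 and the 2 NVP arrays at a mean of 0.76. Within each of these 3 slides, Npas4 kept the order seen over all arrays. With slide as a fixed block the difference from vehicle was -1.11 with AP5 (SE 0.41), -0.19 with NVP (SE 0.32) and -0.66 with Ro25 (SE 0.242). The AP5 value is reached only through the NVP and Ro25 arrays that link the slides, and the NVP value only through Ro25 arrays. The NVP difference was smaller than its SE there, so the step from vehicle to NVP was not resolved within slides.

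The size of the differences moved with the treatment of the background more than with any array that was left out. With the normexp offset, a constant added after background correction that pulls dim ratios towards each other, lowered from 50 to 10, the AP5 difference grew from -1.33 to -2.08. With the scanner software's own ratio, which subtracts background and dye-normalizes without an offset, it was -3.45, and the group mean of AP5 fell to -0.58 ± 0.521 while that of vehicle rose to 2.86 ± 0.321. Ro25 moved from -0.70 to -1.38 and NVP from -0.33 to -0.57 in the same change. In the authors' deposited table the differences came to -1.34 with AP5, -0.70 with Ro25 and -0.33 with NVP. The order vehicle, NVP, Ro25, AP5 held in all 13 other ways of processing and in all 19 repeats that left out 1 array. Some of these ways could not change it. Npas4 has 1 probe, so other filters on dim probes and the mean of the probes of a gene returned the same differences. The gene was also chosen by these values, so the kept order is a description only.

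**Figure D3:**
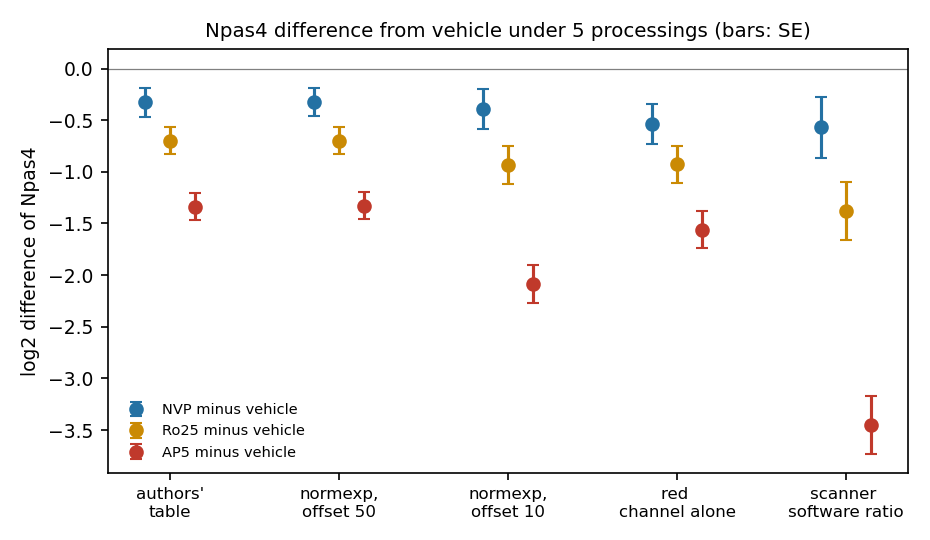
Difference of Npas4 from vehicle on the log2 scale (y axis) for NVP, Ro25 and AP5 under 5 ways of processing (x axis); points are estimates from the fit over 19 arrays and bars are SE. AP5 runs from -1.33 with an offset of 50 to -3.45 with the scanner software's ratio, and NVP from -0.33 to -0.57.

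Among 11 genes reported in neurons to depend on Npas4, 5 fell with AP5 and none rose, read against 7.23% of all genes lower and 10.8% higher by limma at a Benjamini-Hochberg adjusted p under 0.05. The median difference of the 11 was -0.40, beside 0.012 over all genes. Bdnf, the neurotrophin through which Npas4 is known to act on inhibitory synapses, had log2 ratios of 2.14, 2.45, 2.79, 2.48 and 2.42 with vehicle and 0.83, 0.44, 0.49, 0.50 and 1.09 with AP5. All its AP5 arrays were under all its vehicle arrays, and the difference was -1.79 (SE 0.134, adjusted p = 6.12e-08). Arc, which governs AMPA receptor removal from synapses, fell by 1.16 (SE 0.137, adjusted p = 1.27e-05). Csrnp1, a nuclear protein induced with immediate early genes, fell by 1.07 (SE 0.0809, adjusted p = 6.12e-08) at its brightest probe, but its 3 probes ran from -1.07 to 0.076. Fos (-0.87, adjusted p = 0.0025) and Egr1 (-0.71, adjusted p = 0.00127) also fell, and both are known to be induced by calcium signals without Npas4.

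The other 6 of these genes did not pass, and their AP5 differences were -0.40 for the secreted pentraxin Nptx2 (adjusted p = 0.0883), 0.30 for the kinase Plk2, -0.14 for Igf1, -0.10 for the vesicle calcium sensor Syt10, 0.12 for the p53 ligase Mdm2 and 0.023 for the synaptic scaffold gene Homer1. The Homer1 value is that of its brightest probe, and its 4 probes ran from 0.023 to 0.36. Once slide entered the fit as a fixed block, none of the 5 called genes passed, with adjusted p from 0.251 for Csrnp1 to 0.92 for Egr1, and 10 genes of the whole array did. Leaving the slide aside, the number that fell was 4 to 6 over the other settings.

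With NVP and Ro25, none of the 11 genes passed by limma, as none of the 19194 genes did in either comparison (0% called). At an unadjusted p under 0.05, 1591 genes (8.29%) differed with NVP and 1181 (6.15%) with Ro25, and among the 11 it was 2 with NVP and 4 with Ro25, all lower. Bdnf stood at -0.37 with NVP and -0.21 with Ro25, Arc at -0.12 and -0.33, and Fos at -0.18 and -0.43. Npas4 itself stood at -0.33 and -0.70. Since these values chose the gene, it is not ranked against the 11.

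**Figure D4:**
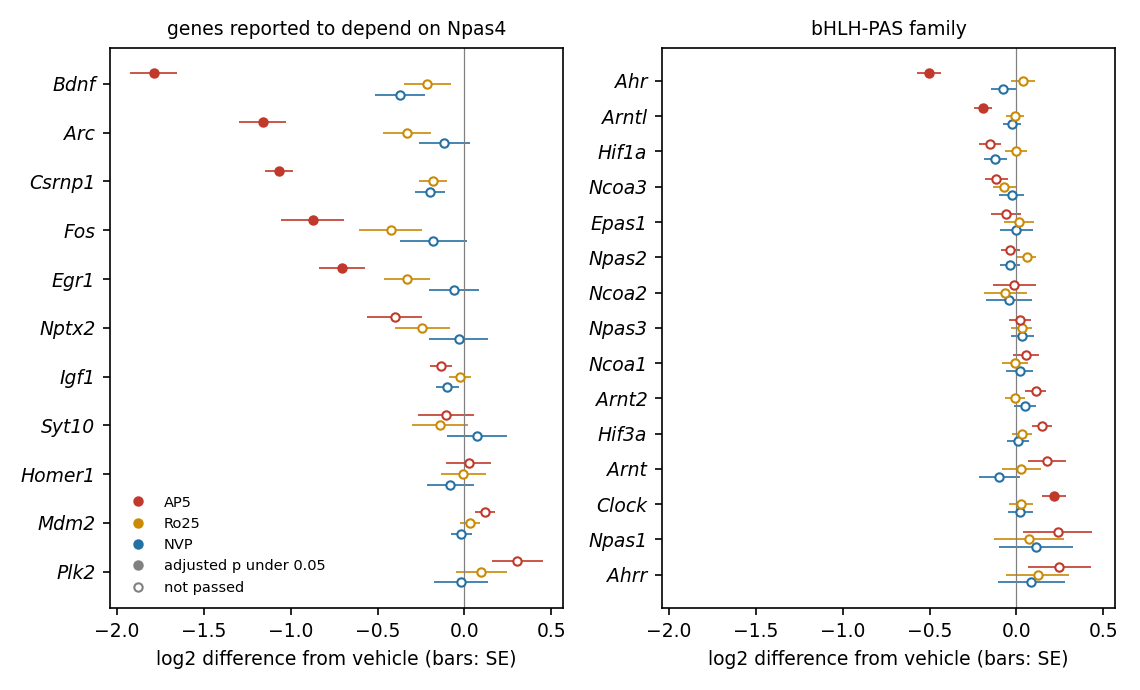
Log2 difference from vehicle (x axis) for 11 genes reported to depend on Npas4 (left) and 15 measured bHLH-PAS family members (right) with AP5, Ro25 and NVP. Points are limma estimates, bars are SE, and filled points have an adjusted p under 0.05; the filled points are 5 of 11 on the left and 3 of 15 on the right, all with AP5.

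Npas4 belongs to the bHLH-PAS family, of which 18 other genes were listed and 15 measured. With AP5 2 fell, 1 rose and 12 did not pass. This is near the share over all genes, of which 18% were called in either direction. Their median difference was 0.019. Ahr, the ligand-activated aryl hydrocarbon receptor, fell by 0.50 (SE 0.0676, adjusted p = 4.95e-05), and every AP5 array (-1.01 to -0.76) was under every vehicle array (-0.52 to -0.19). The clock factor Arntl fell by 0.19 (adjusted p = 0.0127). With slide as a fixed block neither call was kept (Ahr -0.38, adjusted p = 0.548, and Arntl -0.50, adjusted p = 0.308). Clock, the partner of Arntl, rose by 0.21 at its brightest probe (adjusted p = 0.0372), while its 4 probes ran from -0.083 to 0.21. That call was lost in most of the other settings. Among them were the authors' table (0.053, adjusted p = 0.735) and the mean of its probes (0.086, adjusted p = 0.216). It was also lost in 6 of the 19 repeats without 1 array.

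The dimer partners of Npas4 did not pass with any agent. Arnt2, the partner known from neurons, differed from vehicle by 0.11 with AP5 (adjusted p = 0.212), 0.048 with NVP and -0.0071 with Ro25, and Arnt by 0.18, -0.098 and 0.028. The Arnt values are those of its brightest probe, and its 3 probes ran from -0.084 to 0.18 with AP5 and from -0.098 to 0.028 with Ro25. The nearest relatives of Npas4 by name were Npas1 (0.24 with AP5), Npas2 (-0.035) and Npas3 (0.019). Of the hypoxia factors, Hif1a was at -0.15, Hif3a at 0.15 and Epas1 at -0.059 with AP5, the last on a probe whose red was well above background on 1 of 5 AP5 arrays. The Ahr repressor Ahrr (0.25) and the coactivators Ncoa1 (0.055), Ncoa2 (-0.012) and Ncoa3 (-0.12) likewise did not pass. Across all 15 members the differences spanned -0.12 to 0.11 with NVP and -0.069 to 0.12 with Ro25, and none passed at an unadjusted p under 0.05 in either comparison.

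Npas4 is one of a wider group of transcription factor genes that neuronal activity induces within minutes. Of 18 others, 7 fell and 3 rose with AP5, beside 7.23% and 10.8% of all genes, with a median of -0.24. Nr4a1 fell by 1.45 (SE 0.0842, adjusted p = 5.02e-09), Nr4a2, another orphan nuclear receptor, by 0.63 (adjusted p = 0.0022), and Egr1 and Fos as above. Jun, a partner of Fos, rose by 0.54 (SE 0.0824, adjusted p = 1.92e-04). The other 2 that rose were Atf3 (0.67) and, named after its value was seen, Klf4 (0.30). The count that fell was 3 with normexp fitted to all spots, 4 with log ratios scaled to 1 spread and 0 with slide as a fixed block. With NVP and Ro25 none of the 18 passed by limma. At an unadjusted p under 0.05, 1 was lower and 1 higher with NVP, where 8.29% of all genes met it in either direction. With Ro25 5 were lower and 0 higher, where 6.15% met it.

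Npas4 has also been placed among targets of nuclear calcium that favour survival, and 7 others of that kind were measured. With AP5, 3 fell and 3 rose, beside 7.23% and 10.8% of all genes. Those that fell were Nr4a1, Btg2, an antiproliferative factor (-0.33, adjusted p = 0.00172), and Inhba, the activin subunit (-0.37, adjusted p = 0.0377, named after its value was seen). Those that rose were Gadd45g (0.80, SE 0.0529, adjusted p = 1.94e-08), Atf3 (0.67, adjusted p = 0.0034) and Gadd45b (0.66, adjusted p = 4.79e-04), which are also known as stress-induced genes. Gadd45g was the 1 member still called once slide was a fixed block (1.06, adjusted p = 0.0253 there).

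Of 18 measured genes that act upstream of Npas4 transcription, 6 rose and 3 fell with AP5 (10.8% of all genes higher and 7.23% lower). The 6 became 3 in the red channel alone and 0 with normexp on all spots, scaling or slide as a fixed block, and the 3 became 1 in the authors' table, with the scanner software's ratio, with normexp on all spots or with red alone, and 0 with the slide block. Hdac5, a class IIa deacetylase that binds MEF2 factors and that activity drives out of the nucleus, fell by 0.57 (SE 0.0463, adjusted p = 1.39e-07), from 0.68 to 0.85 on the vehicle arrays to 0.17 to 0.24 on the AP5 arrays. Hdac4, also of class IIa and named after its value was seen, went the other way and rose by 0.46 (SE 0.123, adjusted p = 0.0134). The other 2 that fell, named after their values were seen, were Mef2a (-0.29) and Srf (-0.22). The Mef2a value is that of its brightest probe, and its 3 probes ran from -0.29 to 0.15. Creb1, the CREB gene, rose by 0.32 (adjusted p = 0.00413) and Mef2d by 0.38 (adjusted p = 0.00297), but each had 3 probes that disagreed, from 0.031 to 0.32 and from -0.13 to 0.38. The kinase gene Camk2b (0.29, adjusted p = 0.00239) rose in the ratio but turned to -0.089 in the red channel alone and to -0.74 with log ratios scaled to 1 spread.

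Npas4 is known for inhibitory synapses, and of 14 genes for their parts 7 rose and 0 fell with AP5 by limma, beside 10.8% and 7.23% of all genes, with a median of 0.36. At an unadjusted p under 0.05, which 31.4% of all genes met in this comparison, 10 of them were higher and 0 lower. With NVP and with Ro25 none passed by limma, but at that unadjusted p 5 of the 14 were higher and 0 lower with each. Among all genes 8.29% met it with NVP and 6.15% with Ro25. The medians of the 14 were 0.21 and 0.20, so the shift was not particular to AP5, and all 3 comparisons use the same vehicle arrays. With AP5 the GABA-A receptor subunit Gabra5 rose by 0.38 (SE 0.0652, adjusted p = 5.36e-04) at the brighter of 2 probes, the other standing at 0.0996. The subunit Gabrb1 rose by 0.43, the vesicle transporter Slc32a1 by 0.37 and the GABA-synthesizing enzyme Gad2 by 0.39. The count of rises was 5 to 9 of 14 in 9 of the 13 other settings. It was 0 in the remaining 4, which were the red channel alone, log ratios scaled to 1 spread, slide as a fixed block and normexp fitted to all spots, where Gabra5 was at 0.31 (SE 0.154) and Slc32a1 at 0.30 (SE 0.14). All 4 named genes turned negative with the scaling (-0.16 to -0.90), Gad2 also in the red channel alone (-0.085), and Slc32a1 with slide as a fixed block (-0.030). The markers of GABAergic neurons moved with them, 3 of 8 being higher with AP5 and the mean log2 ratio of the list lying at 3.30 to 3.42 with AP5 and 2.99 to 3.25 with vehicle, and its summed red signal at 129100 to 166200 and 110800 to 140500 units. Both lists hold Gad1, Gad2 and Slc32a1. Of these Gad2 and Slc32a1 were called higher, so the 2 lists agree in part because they share these measurements. The part of these markers in the result was not tested.

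Genes beside Npas4 on the chromosome differed little from vehicle. The 3 nearest protein-coding genes on each side in the RefSeq table were Mrpl11, Peli3 and Dpp3 and, on the other side, Slc29a2, B4gat1 and Brms1. With AP5 they ran from -0.17 to 0.13, beside -1.33 for Npas4. Dpp3 fell by 0.17 (adjusted p = 0.0347) at the brighter of 2 probes, the other standing at 0.0043. That call was lost in 9 of the 13 other settings and in 5 of the 19 repeats without 1 array, and the other 5 genes did not pass. With NVP and Ro25 the 6 genes stayed between -0.050 and 0.064.

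The genes whose log2 ratios followed Npas4 most closely over the 19 arrays were Zdhhc5, a palmitoyltransferase gene (Pearson r = 0.965, Spearman rho = 0.939), Phlda1 (0.936), Agfg2 (0.928), Nr4a1 (0.927), Spred2 (0.922) and Spred3 (0.920), which code for inhibitors of Ras-ERK signalling, the mismatch repair gene Pms2 (0.919), the stress kinase gene Map3k5 (0.910), Csrnp1 (0.909) and Ptgs2 (0.907), the inducible cyclooxygenase. Of 15238 genes with an official symbol, 13 had an r above 0.9 and 156 above 0.8. The arrays share the treatments and slides, so these values describe likeness over groups as well as over single arrays, and no p is given.

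Zdhhc5 followed Npas4 within groups as well. Its r was 0.933 over the 14 arrays without AP5 and 0.879 once each group's mean was taken out, and 0.958 without the 2 arrays with Npas4 farthest from the median. On the vehicle arrays 1 to 5 its log2 ratio was -0.61, -0.60, -0.34, -0.55 and -0.44, and on the Ro25 arrays -0.67, -0.63, -0.68, -0.59 and -0.84. Vehicle array 3 was thus the highest and Ro25 array 5 the lowest of its group for Zdhhc5 and Npas4 alike. A high r within groups was not particular to Zdhhc5. After group means were taken out it was 0.853 for Camk4, which did not pass with AP5, and 0.828 for Hdac4, which rose with AP5. For Maff it was -0.703. Camk4, Hdac4 and Maff were named after their values were seen. Ptgs2, at the end of the 10, had an r of 0.744 without AP5 and 0.403 after the group means were taken out. Of the 10 genes, 6 were also among the first 10 without the AP5 arrays, 7 in the authors' deposited table, whose values here gave no r for Zdhhc5 and Ptgs2, 3 in the red channel alone and 1 after the group means were taken out.

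**Figure D5:**
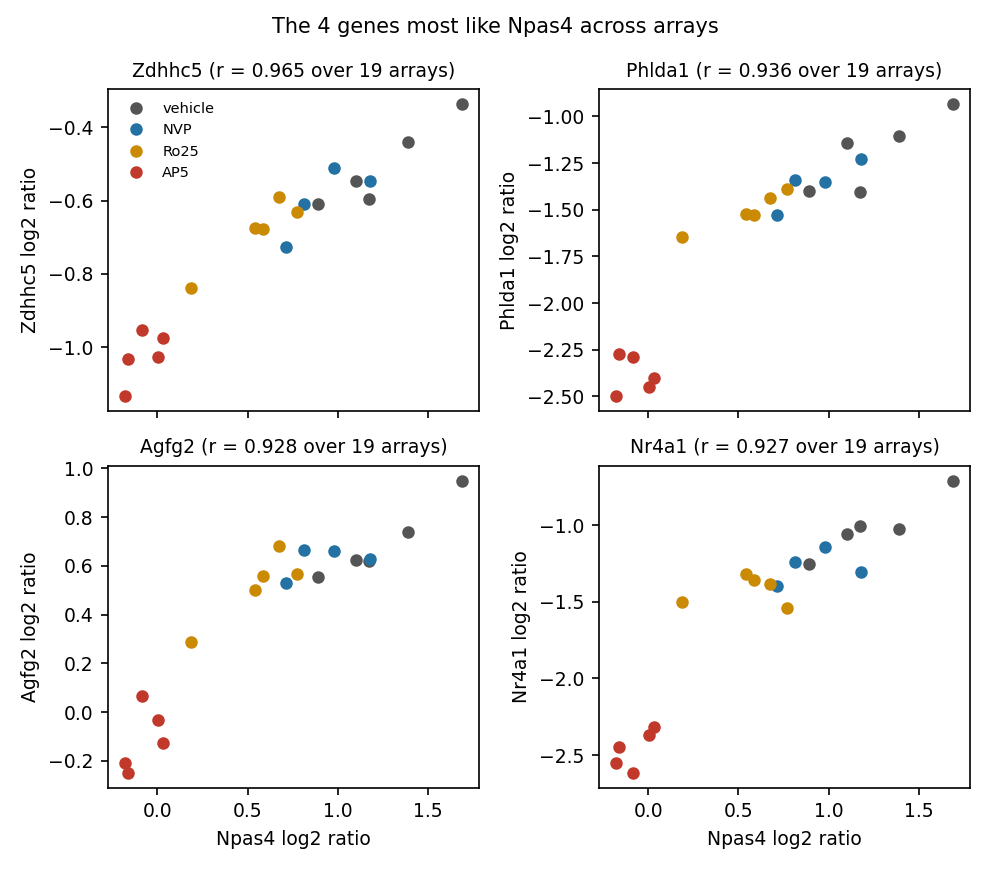
Log2 ratios of the 4 genes most like Npas4 (y axes) against that of Npas4 (x axis), 1 point per array, coloured by treatment; r is Pearson's over 19 arrays. The AP5 arrays form the lower left of each panel and vehicle array 3 the upper right, with r from 0.927 for Nr4a1 to 0.965 for Zdhhc5.

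Likeness to Npas4 chose these 10 genes, so their differences from vehicle follow from the choice and are given without a test. The difference with AP5 was -1.45 for Nr4a1, -1.19 for Phlda1, -1.17 for Spred2, -1.49 for Ptgs2 and -0.52 for Zdhhc5. With Ro25 the same genes were at -0.41, -0.31, -0.26, -0.63 and -0.18, and with NVP at -0.26, -0.17, -0.053, -0.37 and -0.094. In each of these 5 the NVP value lay nearer to vehicle than the Ro25 value, whereas Csrnp1, also among the 10, stood at -0.20 with NVP and -0.18 with Ro25.

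Cell type markers were set beside Npas4 because the cultures varied in glia. In each group 1 array was poor in astrocyte markers, namely AP5 5, NVP 4, Ro25 3 and vehicle 3, with mean log2 ratios of 2.78 to 3.02 for the 10 markers. Vehicle array 3 was also the array with the highest Npas4 (1.69). Without these 4 arrays the Npas4 differences were -1.20 with AP5, -0.60 with Ro25 and -0.24 with NVP. Over the 19 arrays the r of Npas4 with the mean astrocyte markers was -0.213, with the neuron markers -0.444, with the GABAergic markers -0.557 and with the microglial markers 0.522. After group means were taken out these came to -0.343, 0.211, 0.0109 and 0.0991. With the oligodendrocyte lineage markers it was -0.343, and -0.559 after group means were taken out. With AP5, 2 of 7 excitatory neuron, 1 of 10 astrocyte and 2 of 10 oligodendrocyte lineage markers were higher, where 10.8% of all genes were higher and 7.23% lower. Likewise 3 of 10 neuron markers were higher and 3 of 8 measured microglial markers lower, whose summed red signals ran from 204100 to 228600 and from 1708 to 2138 units with AP5 and from 158900 to 193600 and from 1667 to 2400 with vehicle. The part of these markers in the Npas4 difference was not tested.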

How the data were processed

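RNA of 19 samples was measured on two-colour Agilent mouse arrays, with neuron RNA in Cy5 and a universal mouse reference in Cy3; dyes were not swapped. Spot intensities were extracted with Feature Extraction 9.5.3.1 per the file headers (11.0 per the submitters' processing notes). The deposited log10 ratio was background-subtracted and dye-normalized per the file headers. The authors' table holds log2 values for 20674 probes; against the ratios computed here its columns had r of 0.9986 to 0.9998 and medians of 0.0345 to 0.0478, and its centring is not given in the sources used here. The software's other values used here are flags, as deposited.

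From the mean intensities, spots with a quality mark were dropped (1642 on vehicle array 5, 117 to 266 elsewhere), background was corrected by normexp with an offset of 50, and log2 ratios were loess-normalized within arrays. A gene was its brightest probe with red well above background on at least 4 arrays. The 4 groups entered 1 limma fit (version 3.58.1, R 4.3.3) over 19 arrays, two-sided, with Benjamini-Hochberg adjustment over 19194 genes. The fit was tested on simulated data. Symbols and promoters came from RefSeq (GRCm38.p6). Npas4 and the gene lists were chosen with earlier results of these data known. The genes named were all measured members of the bHLH-PAS and Npas4-dependent lists, up to 5 called members of each other list by smallest p, 3 neighbours on each side, and the 10 most like Npas4; 2 genes that this rule took are not reported here. Median red signals ran from 135.5 to 177.8 and median green signals from 88.7 to 106.8. The number of arrays limits the precision. Figures were drawn with matplotlib 3.10.9.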

Additional observations from a re-analysis of the deposited data

Results flagged for a closer look

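AP5 array 5 stood apart within its group in the red Npas4 spot signal, at 70.24 scanner units before background subtraction against 83.47 for the nearest of the other 4, a gap of 0.828 of the group's range on the log2 scale. Ro25 array 2 stood apart in the mean log2 ratio of the microglial markers, at -1.998 against -1.861 for the nearest array, a gap of 0.768 of the range. Of 40 sets of values examined in this way, chance alone would mark about 1 in 20.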

How the results depend on the processing

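Npas4 was lower than vehicle with all 3 agents in all settings run. Other filters on dim probes and averaging over probes could not move Npas4, which has 1 probe. With the scanner software's ratio its differences with AP5, NVP and Ro25 were -3.45, -0.57 and -1.38. With an offset of 10 they were -2.08 with AP5 and -0.93 with Ro25, with scaling to 1 spread -1.54, -0.59 and -0.94, and with the red channel alone -1.56, -0.54 and -0.93. With slide as a fixed block AP5 was at -1.11, and without the 4 arrays poor in astrocyte markers at -1.20. Leaving out each array gave -1.42 to -1.22 with AP5 (-1.22 without vehicle array 3), -0.42 to -0.22 with NVP and -0.79 to -0.59 with Ro25. The cause of these shifts was not tested.

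The 3464 genes called with AP5 became 842 with normexp on all spots, 2225 with scaling, 2118 with red alone and 10 under the slide block, and 2615 to 3493 without 1 array. For NVP 0 to 4 genes were called without 1 array (4 without vehicle array 2), and for Ro25 0 to 2 (2 without vehicle array 2), 2 with red alone and 1 without the 4 astrocyte-poor arrays. With the replicate block Npas4 was at -1.33, -0.35 and -0.70, and 3024 genes were called with AP5 and 0 with NVP and Ro25. The numbers are not known to pair arrays (8 of 27 same-numbered pairs deviated together with a correlation over 0.1), and the block ended the call of Clock (adjusted p = 0.0675) among the 32 gene calls followed. Scaling reversed Gabra5 (-0.34), Slc32a1 (-0.90), Gabrb1 (-0.16), Gad2 (-0.67) and Camk2b (-0.74). Red alone reversed Gad2 (-0.085) and Camk2b (-0.089), and the slide block Slc32a1 (-0.030). With AP5, Npas4 lies too near background for the size of its fall to be fixed.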
